A study of Homo sapiens with 24 samples.

Results

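The interferon response was followed through 9 genes in cultures of human embryonic stem cells: IFIT1, IFIT2, IFIT3, ISG15, MX1, OAS1, IFI6 and IFI44, which interferons induce, and IRF1, a transcription factor that takes part in the response. The genes were listed by name, and every probe set annotated to 1 of these symbols alone was taken, which gave 14 of the 54675 probe sets on the array, or 9 of 19775 genes. The samples were 24 Affymetrix U133 Plus 2.0 arrays of total RNA from the established lines H1, H9 and HSF1, in 8 groups of 3 arrays. In 4 of these groups, each with 1 array per line, cells grew on a feeder layer of mouse embryonic fibroblasts or free of feeders, and received either DMSO, the solvent, or AZD3965 at 250 nM for 5 days. AZD3965 blocks MCT1, a carrier that moves lactate across the membrane. The other 4 groups, with 3 biological replicates each, were H9 and HSF1 cells kept free of feeders. They grew either in plain (unconditioned) medium or in medium in which such fibroblasts had been kept (conditioned). The labels give 5 days for the medium treatment and the design text gives 24 hours. The study asked how feeders, their secreted factors and a block of lactate transport alter pluripotent cells. Each group rests on at most 3 lines, or on replicates of 1 line, and the feeder cells are of another species than the arrays' probes.

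Interferons are secreted signals that warn cells of infection. Their receptors activate JAK kinases and STAT factors. Together with IRF9, STAT factors bind the interferon-stimulated response element (ISRE) in front of genes such as IFIT1 and ISG15, and STAT dimers alone bind the gamma-activated site (GAS) in front of genes such as IRF1. The induced proteins bind foreign RNA (the IFIT family), tag other proteins (ISG15), block viral particles (MX1) or trigger RNA decay (OAS1). Pluripotent stem cells are known for a weak response to interferon and for a low-level expression of some of these genes without it.

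The promoters of the genes that the results turn on are shown because they carry these elements. The letters GAAANNGAA were searched on both strands as the core of the ISRE, and TTCNNNGAA, which reads the same on both strands, as the core of the GAS. Matches of both motifs may overlap. Windows are the 250 bases in front of a RefSeq start in GRCh38.p14, written 5′ to 3′ on the strand of the gene, with matches in capitals.
IFIT1, chr10:89392373-89392622, plus strand: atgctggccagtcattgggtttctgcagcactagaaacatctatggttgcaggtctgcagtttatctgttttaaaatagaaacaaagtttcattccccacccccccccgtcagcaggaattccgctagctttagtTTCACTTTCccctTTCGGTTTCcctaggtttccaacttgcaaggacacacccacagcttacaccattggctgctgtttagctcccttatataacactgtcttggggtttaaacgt
ISG15, chr1:1013247-1013496, plus strand: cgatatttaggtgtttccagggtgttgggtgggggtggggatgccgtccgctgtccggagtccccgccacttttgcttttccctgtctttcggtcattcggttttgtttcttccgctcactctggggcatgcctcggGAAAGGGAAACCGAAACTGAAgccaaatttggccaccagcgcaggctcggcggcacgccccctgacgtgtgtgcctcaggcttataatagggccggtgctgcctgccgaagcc
IFI6, chr1:27672193-27672442, minus strand: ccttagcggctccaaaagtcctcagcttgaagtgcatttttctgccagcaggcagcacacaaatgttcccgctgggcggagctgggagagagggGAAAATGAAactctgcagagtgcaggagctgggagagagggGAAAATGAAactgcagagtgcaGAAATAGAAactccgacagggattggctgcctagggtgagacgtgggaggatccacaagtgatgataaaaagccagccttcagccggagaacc
MX1, start 3 of 3, chr21:41431800-41432049, plus strand: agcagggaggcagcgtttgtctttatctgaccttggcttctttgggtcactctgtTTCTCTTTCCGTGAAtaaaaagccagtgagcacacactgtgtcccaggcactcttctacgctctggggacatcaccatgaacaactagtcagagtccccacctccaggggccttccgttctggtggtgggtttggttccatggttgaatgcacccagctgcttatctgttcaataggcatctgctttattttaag
IRF1, chr5:132490774-132491023, minus strand: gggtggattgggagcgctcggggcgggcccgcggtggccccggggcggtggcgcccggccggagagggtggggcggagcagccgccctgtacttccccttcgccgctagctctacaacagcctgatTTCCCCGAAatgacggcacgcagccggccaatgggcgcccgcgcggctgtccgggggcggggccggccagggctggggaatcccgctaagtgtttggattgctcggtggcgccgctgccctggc

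The RefSeq table held 12 promoters of 8 of the 9 genes. The ISRE core occurred in those of 6 genes: 2 times in front of IFIT1, 3 times in front of ISG15 and of IFI6, 1 time in front of start 3 of MX1, and also in front of IFIT3 and IFI44. The GAS core occurred in front of IRF1 (positions -124 to -116 from the start), of OAS1, and of start 3 of MX1. Start 3 of MX1 is shown because the windows of the other starts held no match to these letters. An element with other letters or another spacing would be missed, so a window without a match may still hold one. Over all 35116 promoters of the same length, 6.88% held the ISRE core and 6.57% the GAS core. In the same build IFIT2 (chr10:89302046-89309271), IFIT3 (chr10:89327997-89340968) and IFIT1 (chr10:89392623-89406487) lie in a row, and OAS1 (chr12:112906962-112933219) and IFI44 (chr1:78649789-78664078) lie elsewhere. A match describes the letters of the window and not binding of a factor.

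Levels are the deposited RMA values on the log2 scale, and array medians ran from 6.09 to 6.35. Levels of different probe sets were not compared with each other. ISG15, MX1, IFI6 and the IRF1 probe set 202531_at lay above the array's own median on all 24 arrays. IFIT1 ran from 4.85 to 7.17 and lay above the array's median on 8 of 24 arrays. The others were dim or depended on the probe set. For IFIT2 the probe set 217502_at ran from 5.99 to 7.08, whereas 226757_at ran from 3.05 to 3.95. For IFIT3 the probe set 204747_at ran from 5.95 to 7.48 and 229450_at from 3.97 to 5.92. OAS1, which makes the signal for RNase L, passed a log2 value of 5 on 5 of 24 arrays by 202869_at and on 0 by 205552_s_at. IFI44, an interferon-induced cytoplasmic protein, stayed under 5 on all 24 arrays by both of its probe sets. A gene was tested where it passed 5 on at least 3 of the 12 arrays of an experiment, and it was represented by its probe set of highest mean. That left 8 of the 9 genes tested for feeders and inhibitor and 7 for medium. OAS1 entered the tests of feeders and inhibitor only through feeder-supported arrays of H9 and HSF1, where it is highest. Its differences between feeders and feeder-free culture are therefore a description only.

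**Figure D1:**
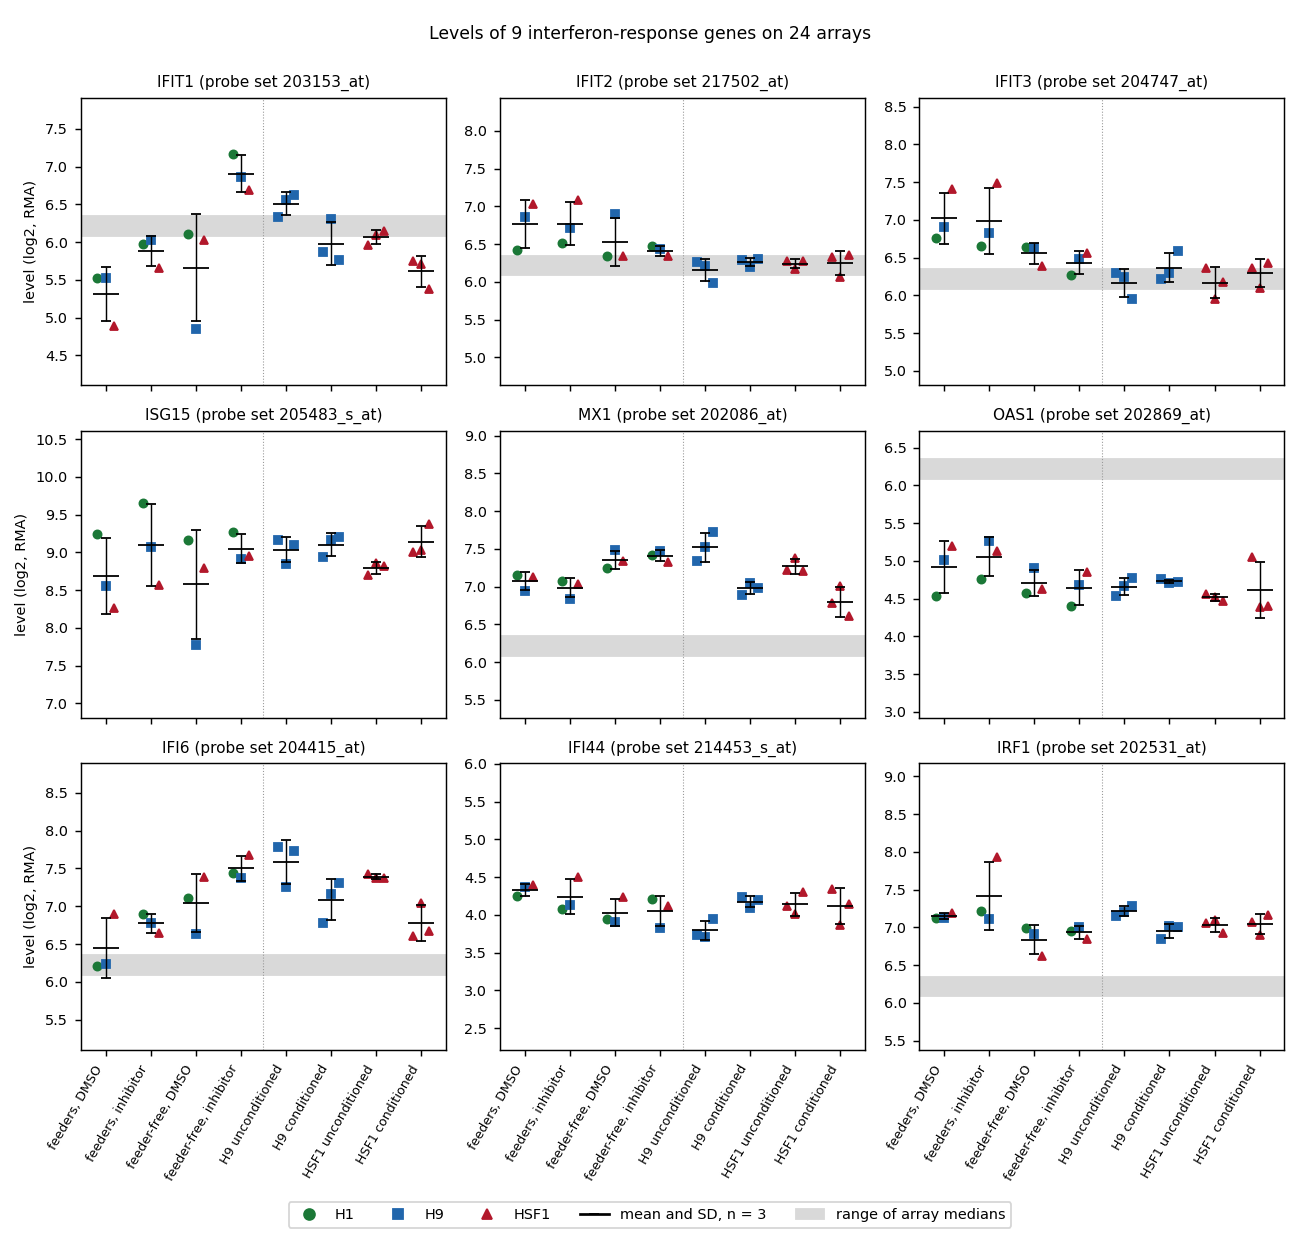
Log2 level of the representing probe set of each of the 9 genes (vertical axes, each spanning the same range) in the 8 groups, with points for arrays, colours for lines, and bars for the mean and SD of 3 arrays. IFIT1, MX1 and IFI6 lie lower in conditioned than in unconditioned medium, and OAS1 and IFI44 lie below the grey range of array medians on every array.

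The groups on feeders mostly held more signal of fibroblast markers, and a few arrays stood apart. Mean levels of 12 fibroblast markers ran from 7.65 to 8.25 with feeders and from 6.57 to 7.62 without them (DMSO), from 7.82 to 8.59 and from 7.02 to 7.96 with the inhibitor, and from 6.68 to 6.99 in the medium groups. In HSF1 with the inhibitor the order was reversed, at 7.87 on feeders and 7.96 without. All 6 measured of 8 pluripotency markers passed 5 on every array. Of the 12, 0 stayed under 5 on all feeder-supported DMSO arrays, and 1 did on all feeder-free ones. Mean levels of 5 blood cell markers ran from 5.44 to 5.996 with feeders and from 5.03 to 5.19 without (DMSO), and from 5.38 to 6.15 and from 4.92 to 5.07 with the inhibitor. Both feeder-supported HSF1 arrays had the narrowest distribution, with an interquartile range of 2.45 against 2.66 to 3.30 elsewhere. Every feeder-supported array was narrower (2.45 to 2.85) than every feeder-free array (3.06 to 3.30). The width of the distribution and the presence of feeders therefore cannot be told apart here. The control probe sets for ACTB read both ends of the transcript, and the gap between the 3′ and the 5′ end widens as RNA degrades. This gap was 3.25 in replicate 2 and 2.89 in replicate 3 of unconditioned H9 cells, and at most 1.84 on every other array. With DMSO it ran from -0.15 to 0.80 on feeders and from 0.65 to 1.005 without.

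In the fit over genes, conditioned medium lowered 3 of the 7 tested genes, MX1, IFI6 and IFIT1, in both lines. In H9 cells 3 of 7 fell and 0 rose, where 16.4% of all 16572 tested genes passed in either direction, 13% lower and 3.45% higher. In HSF1 cells the same 3 genes fell and ISG15 rose, where 18.3% of all genes passed, 9.78% lower and 8.57% higher. The threshold was an adjusted p of 0.05 in limma, with Benjamini-Hochberg adjustment over all tested genes. When the same model was fitted over all probe sets, only MX1 passed in both lines. There IFI6 missed the threshold in H9 (limma adjusted p = 0.0585). In HSF1 IFIT1 (limma adjusted p = 0.0536) and ISG15 (limma adjusted p = 0.0589) missed it. The median difference of the 7 genes was -0.26 in H9 and 0.01 in HSF1, against -0.03 and 0.03 over all genes. Of the 6 measured pluripotency markers 3 rose in H9 (NANOG, SOX2 and SALL4), and in HSF1 2 rose (NANOG and SOX2) and 1 fell (L1TD1). Of 9 tested fibroblast markers 2 fell in each line. Their part in the results was not tested.

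MX1, a dynamin-like GTPase that blocks viruses, was measured in H9 cells at 7.33, 7.52 and 7.72 in unconditioned and 6.89, 7.05 and 6.99 in conditioned medium. In HSF1 cells it was measured at 7.22, 7.38 and 7.21, and 6.78, 7.01 and 6.61. Every conditioned array lay below every unconditioned array of its line. The fitted difference was -0.55 in H9 (SE 0.111, limma adjusted p = 0.00341), or 1.46-fold, and -0.47 in HSF1 (SE 0.111, limma adjusted p = 0.00744), or 1.38-fold.

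IFI6, a small protein of the endoplasmic reticulum and mitochondria, was measured in H9 cells at 7.78, 7.25 and 7.73 in unconditioned and 6.78, 7.17 and 7.31 in conditioned medium. The H9 groups overlapped, since replicate 3 in conditioned medium lay above replicate 2 in unconditioned medium. In HSF1 cells it was measured at 7.43, 7.37 and 7.37, and 6.60, 7.04 and 6.68, without overlap. The difference was -0.50 in H9 (SE 0.151, limma adjusted p = 0.0337) and -0.62 in HSF1 (SE 0.151, limma adjusted p = 0.00875). The H9 call ended with replicate numbers as a block (limma adjusted p = 0.0540) and after quantile normalization (0.0598).

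IFIT1, which binds RNA that lacks the cap marks of the host, carries 2 ISRE cores in the window shown above. It was measured in H9 cells at 6.33, 6.55 and 6.63 in unconditioned and 5.87, 6.30 and 5.77 in conditioned medium. In HSF1 cells it was measured at 5.96, 6.09 and 6.14, and 5.75, 5.71 and 5.38. The groups did not overlap in either line. The difference was -0.52 in H9 (SE 0.136, limma adjusted p = 0.0160) and -0.45 in HSF1 (SE 0.136, limma adjusted p = 0.0298).

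ISG15, the ubiquitin-like protein with 3 ISRE cores in its window, went the other way in HSF1 cells. It was measured there at 8.70, 8.85 and 8.82 in unconditioned and 9.01, 9.04 and 9.38 in conditioned medium, without overlap, a difference of 0.35 (SE 0.108, limma adjusted p = 0.0328). With the replicate block this call ended (limma adjusted p = 0.0542). In H9 cells it was measured at 9.16, 8.85 and 9.10, and 8.93, 9.17 and 9.21, and the groups overlapped (0.07, SE 0.108, limma adjusted p = 0.697). The difference between the lines was -0.29 and did not pass (limma adjusted p = 0.274).

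IRF1 and the other IFIT genes did not pass. IRF1 in H9 was measured at 7.16, 7.21 and 7.28 in unconditioned and 6.85, 7.01 and 7.001 in conditioned medium. These groups did not overlap, and the difference of -0.26 missed the threshold (SE 0.0885, limma adjusted p = 0.055). It passed in 4 of 22 alternatives, among them arrays set to a common median (limma adjusted p = 0.0294). Its second probe set, 238725_at, differed by 0.03 in H9 (SE 0.110). In HSF1 the difference of 202531_at was 0.01 (95% interval -0.17 to 0.20). IFIT2 and IFIT3 differed by 0.10 and 0.21 in H9 and by 0.01 and 0.13 in HSF1, and each interval held 0. IFI44, too dim for the test, was measured in H9 at 3.73, 3.71 and 3.94 in unconditioned and 4.24, 4.09 and 4.196 in conditioned medium. At these levels background limits what a difference means. No gene passed the test of a difference between the lines in its response (0 of 7, against 7.73% of all genes). At an unadjusted p under 0.05 it was 1 of 7, against 3994 of all 16572 genes. That gene was IRF1 (difference -0.27, 95% interval -0.54 to -0.008). A missed threshold does not show that the lines responded alike.

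**Figure D2:**
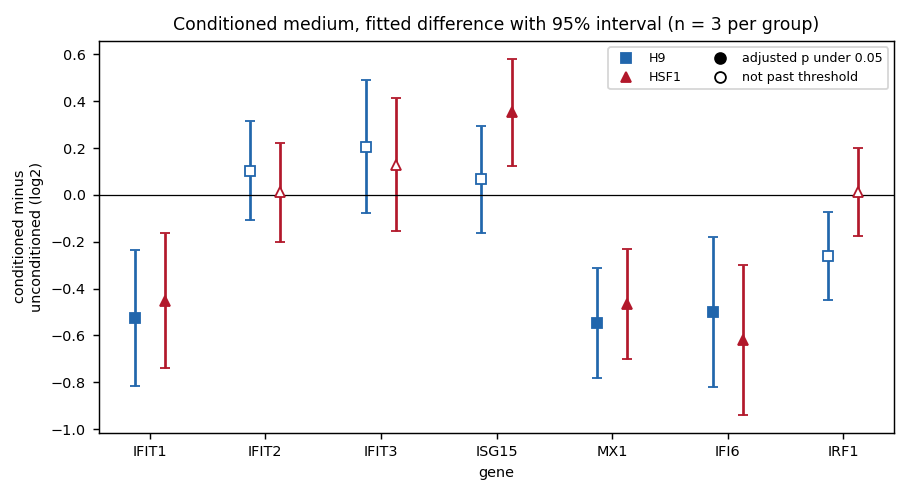
Fitted difference between conditioned and unconditioned medium (vertical axis, log2) for the 7 tested genes in H9 (squares) and HSF1 (triangles), with 95% intervals from limma and filled symbols past the threshold. MX1, IFI6 and IFIT1 lie between -0.62 and -0.45 in both lines, and ISG15 lies at 0.07 in H9 and 0.35 in HSF1.

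In H9 the 3 genes stayed lower in 22 of 22 alternatives, and some calls ended. Without unconditioned replicates 2 and 3, which had the high ACTB gap, 1 array was left in that group, assumed to vary like the other groups. MX1 then differed by -0.36 (limma adjusted p = 0.209), IFIT1 by -0.35 (limma adjusted p = 0.408) and IFI6 by -0.69 (limma adjusted p = 0.0447, still past the threshold). The call of IFIT1 also ended with array weights, with the ACTB gap as a covariate, without unconditioned replicate 3 and without conditioned replicate 1 or 3. In these fits it differed by -0.47 to -0.41, with limma adjusted p from 0.0516 to 0.0836. The call of IFI6 ended without unconditioned replicate 1 (-0.40) or 3 (-0.43) and without conditioned replicate 1 (-0.35) or 2 (-0.54), with limma adjusted p from 0.0582 to 0.144. In HSF1 cells the ACTB gap ran from 1.52 to 1.63 in unconditioned and from 1.67 to 1.84 in conditioned medium. There MX1 and IFIT1 lost the threshold without conditioned replicate 3 (limma adjusted p = 0.0514 and 0.156), IFIT1 also without unconditioned replicate 2 (0.0847) or 3 (0.108), and ISG15 without conditioned replicate 3 (0.181) or unconditioned replicate 1 (0.136), 2 (0.0593) or 3 (0.0772). The IFI6 call in HSF1 held in 22 of 22 alternatives.

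The wider pathway was read from 8 lists of 103 other interferon genes, of which 98 had a probe set and 84 were tested for medium. The lists were chosen with earlier results of these data known. A share above that of all genes therefore describes the lists and does not test the pathway. In H9 cells 26 of 84 fell (31%) and 3 rose (3.57%), against 13% lower and 3.45% higher over all genes. In HSF1 cells 15 fell (17.9%) and 5 rose (5.95%), against 9.78% lower and 8.57% higher over all genes. Of these, 12 fell in both lines, which is 46.2% of those in H9 and 80% of those in HSF1, and IFITM1 rose in both (0.45 and 0.42). Without H9 unconditioned replicate 3, 16 of 84 fell in H9 (19%), against 6.18% of all genes, and without replicates 2 and 3 it was 9 of 84 lower (10.7%), against 2.59% of all genes.

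Sensors of viral RNA stood first. IFIH1, the receptor known as MDA5, fell by 1.99 in H9, from 7.48 ± 0.316 to 5.49 ± 0.105 (SD, n = 3 arrays each; limma adjusted p = 6.28e-08), and by 1.16 in HSF1, from 6.44 ± 0.141 to 5.28 ± 0.0277 (limma adjusted p = 9.92e-06). Its fall was larger in H9 (difference -0.83, SE 0.182, limma adjusted p = 0.0134). Without the H9 unconditioned replicates 2 and 3 it fell by 1.66 in H9 (limma adjusted p = 5.87e-06). TLR3, the endosomal RNA receptor (-0.84), and RIGI (-0.44) passed in H9, and the kinase IKBKE passed in both lines (-0.51 and -0.53). TLR3 is dim, with a mean of 4.73 over the 24 arrays, and did not pass the filter in the inhibitor experiment. The filter may thus have admitted it to the medium tests through unconditioned H9 arrays, which favours a fall. ZBP1, another nucleic acid sensor, was higher in HSF1 (0.39). In total 4 of 10 sensors and adaptors, TLR3 among them, fell in H9, where 13% of all genes fell. In HSF1 2 fell and 1 rose, where 9.78% of all genes fell and 8.57% rose.

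Receptors and transducers were read beside the same shares of all genes. Of 7 tested genes for interferons and receptors, 2 fell and 1 rose in H9 and 0 passed in HSF1. Those that fell were the receptor chains IFNAR1 (-0.38) and IFNGR2 (-0.26), and the one that rose was the interferon IFNL1 (0.38). Of 5 transducers, only JAK1, the kinase shared by interferon receptors, passed, and it fell in both lines (-0.36 and -0.61). Of 6 other IRF factors, IRF2 fell in both lines (-0.56 and -0.29) and IRF7 rose in HSF1 (0.44). Of 9 negative regulators, USP18, which removes ISG15 from proteins, fell in HSF1 (-0.64), and TRIM28, a repressor of retroelements, rose in H9 (0.36). Of 3 tested ISG15 conjugation genes, the ligases HERC5 (-0.44) and HERC6 (-0.57) fell in H9 and 0 passed in HSF1.

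Of 33 tested genes on the list of further induced genes, 11 fell and 1 rose in H9, and 6 fell and 3 rose in HSF1. The shares of all genes given above apply here too. IFIT5, a relative of IFIT1, fell in both lines (-0.69 and -0.86), as did LGALS3BP (-0.68 and -0.48), TRIM14 (-0.49 and -0.27) and DTX3L (-0.39 and -0.50). TRIM22 fell in H9 (-0.21) and rose in HSF1 (0.43), a difference that passed itself (-0.64, SE 0.0928, limma adjusted p = 0.00112). Of 11 tested targets of IRF1 and interferon-gamma, a list that holds antigen presentation genes beside others such as the enzyme IDO1, 5 fell in H9 and 4 in HSF1. The immunoproteasome subunits PSMB9 (-0.60 and -0.72) and PSMB8 (-0.45 and -0.64) and the peptide transporter chain TAP2 (-0.32 and -0.27) were among both. Without H9 unconditioned replicates 2 and 3, PSMB9 did not pass in H9 (-0.47, limma adjusted p = 0.112). B2M, the light chain of MHC class I, fell in HSF1 (-0.51), and the difference between the lines passed (0.37, SE 0.0887, limma adjusted p = 0.0201).

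**Figure D3:**
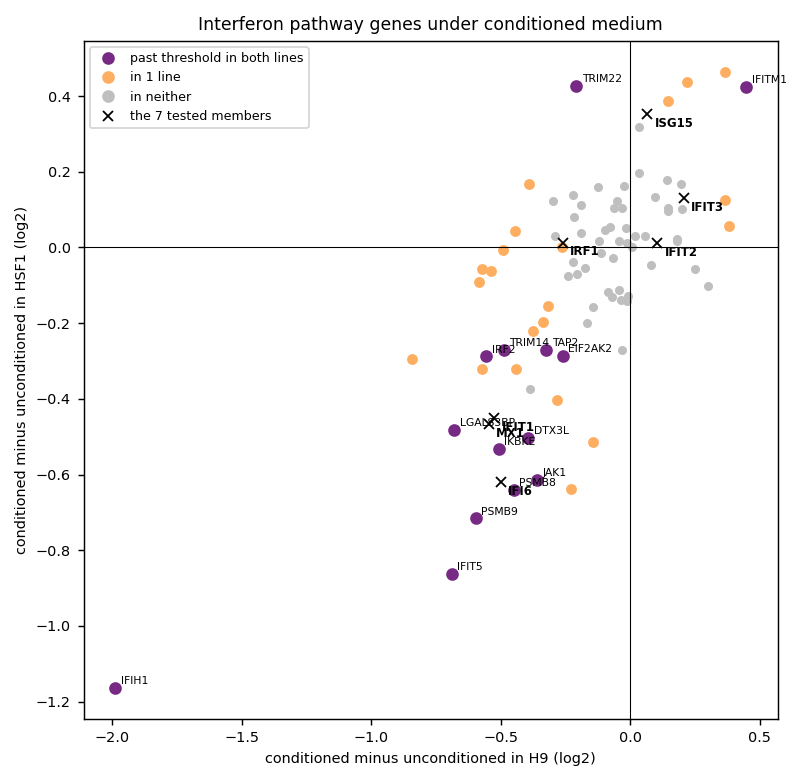
Fitted log2 difference between conditioned and unconditioned medium in H9 (horizontal axis) and HSF1 (vertical axis) for the 84 tested pathway genes (circles, coloured by the number of lines in which they passed) and the 7 tested members (crosses). IFIH1 lies farthest from 0, at -1.99 and -1.16, and TRIM22 passed in both lines with opposite signs.

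The inhibitor of MCT1 gave 0 of 8 genes past the threshold as a mean over both culture systems, where 0.639% of 17218 genes passed. At an unadjusted p under 0.05 there were 3 of 8, IFIT1, IFI6 and ISG15, against 1394 of all 17218 genes. The fit that pairs each inhibitor array with the DMSO array of the same line and culture (a replicate block of line within culture) called these 3 genes higher, where 15.9% of all genes passed, 10.5% higher. Both settings are given because the call turns on that choice. The median difference of the 8 genes was 0.11, against -0.0038 over all genes. Of all called genes, 73.6% lay higher with the inhibitor, and 61.7% after quantile normalization. Of the 12 fibroblast markers 11 lay higher with the inhibitor as a mean and 0 passed. Without feeders 10 of them lay higher, with a median difference of 0.56. Of the 6 pluripotency markers 1 lay higher as a mean, and 0 passed. The part of these markers in the results was not tested.

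IFIT1 was measured in H1, H9 and HSF1 on feeders at 5.52, 5.52 and 4.89 with DMSO and 5.97, 6.02 and 5.66 with the inhibitor. Without feeders it was measured at 6.10, 4.85 and 6.03, and 7.17, 6.86 and 6.68. All inhibitor arrays lay above all DMSO arrays of the same culture system, and H9 without feeders had the lowest DMSO level. The mean difference was 0.91 (SE 0.200, limma adjusted p = 0.0737), or 1.88-fold, higher in 6 of 6 pairs, and the pair differences ran from 0.45 to 2.01. With the pair block the limma adjusted p was 0.000909.

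The difference of IFIT1 was 0.57 on feeders (SE 0.283, limma adjusted p = 1.00) and 1.24 without (SE 0.283, limma adjusted p = 0.0787). With the pair block, IFIT1 without feeders passed (limma adjusted p = 0.00115), where 14% of all genes passed, 9.32% higher. In the unpaired fit it passed without the line HSF1 (1.54, limma adjusted p = 0.0323) and without its feeder-supported arrays (1.24, limma adjusted p = 0.0182). The difference between the culture systems was -0.67 (95% interval -1.54 to 0.20) and did not pass (limma adjusted p = 1.00). Without the H9 feeder-free DMSO array, a choice made after its value was seen, the mean was 0.68 (limma adjusted p = 0.0914) and the difference without feeders 0.79 (0.232).

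IFI6, with 3 ISRE cores in its window, was measured on feeders at 6.21, 6.23 and 6.90 with DMSO and 6.90, 6.77 and 6.65 with the inhibitor. Without feeders it was measured at 7.11, 6.64 and 7.39, and 7.44, 7.38 and 7.68. The groups overlapped in both culture systems, and HSF1 on feeders was the one pair of 6 that was lower. The mean difference was 0.39 (SE 0.143, limma adjusted p = 0.410; 0.0381 with the pair block).

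ISG15 was measured on feeders at 9.24, 8.55 and 8.26 with DMSO and 9.65, 9.07 and 8.56 with the inhibitor. Without feeders it was measured at 9.16, 7.77 and 8.80, and 9.27, 8.92 and 8.96. The groups overlapped, and all 6 pairs were higher. The mean difference was 0.44 (SE 0.198, limma adjusted p = 0.603; 0.0217 with the pair block). The H9 pair without feeders differed by 1.14 and the other 5 pairs by 0.10 to 0.52. Without the H9 feeder-free DMSO array the mean was 0.26 (limma adjusted p = 1.00). In the unpaired fit, IFIT1 and IFI6 passed without the line HSF1 (1.01, limma adjusted p = 0.0412, and 0.58, limma adjusted p = 0.0382). They also passed without its feeder-supported arrays alone (0.86, limma adjusted p = 0.0358, and 0.54, limma adjusted p = 0.0146).

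The remaining genes showed small mean differences: 0.18 for IRF1 (95% interval -0.16 to 0.52), 0.04 for OAS1 (-0.22 to 0.30), -0.02 for MX1 (-0.27 to 0.24), -0.06 for IFIT2 (-0.37 to 0.26) and -0.08 for IFIT3 (-0.40 to 0.24). IRF1 in HSF1 on feeders was at 7.19 with DMSO and 7.93 with the inhibitor, and in the other 5 pairs it differed by -0.03 to 0.22. The second IRF1 probe set differed by -0.16 on average (SE 0.131). On feeders 0 of 8 genes passed, where 0.00581% of all genes passed. At an unadjusted p under 0.05 it was also 0 of 8, against 286 of all 17218 genes. Without feeders 0 of 8 passed, where 0.842% of all genes passed. There 2 of 8 had an unadjusted p under 0.05, as did 1333 of all 17218 genes. In the test of the difference between culture systems 0 of 8 passed, against 0.0174% of all genes. It was also 0 of 8 at an unadjusted p under 0.05, against 357 of all 17218 genes.

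**Figure D4:**
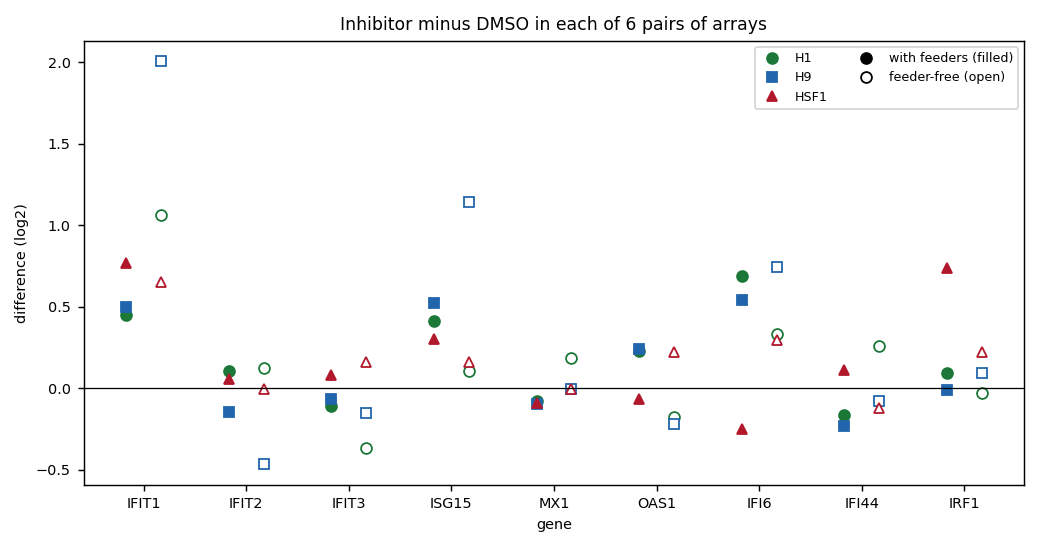
Difference between the inhibitor and the DMSO array (vertical axis, log2) in each of 6 pairs for the 9 genes, with colours for lines, filled symbols for cultures on feeders and open symbols for cultures without. All pairs of IFIT1 and ISG15 lie above 0, and the feeder-free H9 pair lies highest for both, at 2.01 and 1.14.

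Of the 88 other pathway genes tested, 3 rose with the inhibitor (3.41%) and 0 fell, where 0.47% of all genes rose: IFIH1, BST2 and PSMB9. As the lists were chosen with earlier results of these data known, these shares describe and do not test an excess. IFIH1 had means of 4.81 ± 0.276 and 5.18 ± 0.303 on feeders and of 5.09 ± 0.733 and 6.98 ± 0.356 without feeders, with DMSO and the inhibitor (SD, n = 3). Its mean difference was 1.13 (SE 0.214, limma adjusted p = 0.0432), and without feeders it was 1.89 (SE 0.303, limma adjusted p = 0.0142). The mean lost the threshold without H1 (limma adjusted p = 0.671), without H9 (0.470), without the H9 feeder-free DMSO array (0.114), and in other alternatives such as quantile normalization (0.0757). BST2, which tethers virus particles to the membrane, rose on feeders from 6.95 ± 0.114 to 9.33 ± 0.515 and without feeders from 8.32 ± 0.578 to 11.2 ± 0.256, a mean difference of 2.63 (SE 0.174, limma adjusted p = 8.53e-05). PSMB9 was at 6.38 ± 0.0823 and 6.94 ± 0.226 on feeders and at 6.26 ± 0.263 and 7.54 ± 0.192 without, a mean difference of 0.92 (SE 0.135, limma adjusted p = 0.0145). The PSMB9 mean lost the threshold without H1 (limma adjusted p = 0.423), without H9 (0.473) and without the H9 feeder-free DMSO array (0.0531). With the pair block 14 of 88 rose (15.9%) and 3 fell (3.41%), against 10.5% and 5.38% of all genes. Without the feeder-supported HSF1 arrays 10 rose (11.4%, against 6.01% of all genes), and without the line HSF1 7 rose (7.95%, against 2.35%). Without H1, without H9 or without the H9 feeder-free DMSO array 1 rose (1.14%). The shares of all genes in these fits were 0.0116%, 0.00581% and 0.0581%.

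Feeders changed 1 of the 8 tested genes with DMSO: IFI6 fell, where 39.3% of all genes passed, 24.1% lower and 15.2% higher. With the inhibitor IFIT1 and IFI6 were lower and IFIT3 higher, where 47.1% of all genes passed, 27.8% lower and 19.3% higher. These shares of members lie near or under the background. RNA of the mouse feeder cells on human probes and a response of the human cells cannot be told apart here, nor can fewer cells of a type and less RNA per cell. Of the 12 fibroblast markers 5 rose and 0 fell on feeders with DMSO. With the inhibitor 3 rose (DCN, FAP and TWIST1) and 3 fell (THY1 at -1.01, POSTN at -0.85 and COL6A3 at -1.02). FAP and TWIST1 did not pass the filter in the feeder-free medium experiment. Of 4 tested blood cell markers 2 rose with DMSO and 4 with the inhibitor. Of 6 pluripotency markers 3 fell with DMSO (SOX2, SALL4 and L1TD1) and 5 with the inhibitor. The part of these markers in the results was not tested. The median difference over all genes was -0.19 with DMSO as deposited, 0.04 after quantile normalization and -0.30 with arrays set to a common median. The median of the 8 genes was 0.16, with OAS1 among them, which passed the filter only on feeder-supported arrays. Of all called genes with DMSO, 38.7% lay higher on feeders, and 51.1% after quantile normalization.

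IFI6 was lower on feeders in each line, by the arrays given above. With DMSO the differences were -0.90 in H1, -0.40 in H9 and -0.49 in HSF1. The fit gave -0.60 (SE 0.202, limma adjusted p = 0.0380), which is -0.41 relative to the median of all genes. With the inhibitor the differences were -0.54, -0.61 and -1.04, and the fit gave -0.73 (SE 0.202, limma adjusted p = 0.0180), or -0.53 relative to that median. The sign held in 14 of 14 alternatives in both comparisons. The DMSO call ended after quantile normalization (limma adjusted p = 0.0931), without H1 (0.262), without H9 (0.112), with the ACTB gap as a covariate (0.421) and with no block for the line (0.0926). The inhibitor call ended after quantile normalization (0.0696), without H1 (0.0909), without H9 (0.0626), with the covariate (0.179) and with no block (0.0505).

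IFIT1 differed between feeders and feeder-free culture by -0.58 in H1, 0.67 in H9 and -1.14 in HSF1 with DMSO, so the lines did not go one way. The fitted difference was -0.35 (SE 0.283, limma adjusted p = 0.306), and without the H9 feeder-free DMSO array it was -0.80 (limma adjusted p = 0.0261). With the inhibitor the differences were -1.20, -0.84 and -1.02. All feeder-supported inhibitor arrays lay below all feeder-free ones, and the fit gave -1.02 (SE 0.283, limma adjusted p = 0.0178), or 2.03-fold. That call ended without H1 (limma adjusted p = 0.113) and with the ACTB covariate (0.136).

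IFIT3 by 204747_at was measured with the inhibitor at 6.65, 6.83 and 7.48 on feeders and 6.27, 6.48 and 6.55 without, in H1, H9 and HSF1. The groups did not overlap, and the difference was 0.55 (SE 0.206, limma adjusted p = 0.0455). The call ended in 11 of 14 alternatives, among them without any 1 line (limma adjusted p from 0.0636 to 0.137) and without the feeder-supported HSF1 arrays (0.30, adjusted p = 0.106). Its dimmer probe set 229450_at differed by 0.31 with the inhibitor (SE 0.223, limma adjusted p = 0.241 over probe sets) and by -0.35 with DMSO.

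MX1 was lower on feeders in all 3 lines in both treatments, with differences from -0.64 to -0.08, and the fits missed the threshold (-0.28, limma adjusted p = 0.174; -0.43, limma adjusted p = 0.0517). With the inhibitor it passed in 6 of 14 alternatives, among them arrays set to a common median (limma adjusted p = 0.0196). IRF1 was higher on feeders in all 3 lines in both treatments by 202531_at, and the fits missed it too (0.31, limma adjusted p = 0.246; 0.48, limma adjusted p = 0.0829). With DMSO the IRF1 probe set 238725_at was at 6.64 to 6.95 on feeders and 6.13 to 6.27 without. It passed over all probe sets (0.58, SE 0.186, limma adjusted p = 0.0316), where 39.5% of probe sets passed, 16.3% higher, so the probe sets of IRF1 differ in the call. ISG15 differed by 0.11 and 0.05, with signs that varied between lines and with the scaling of the arrays. OAS1 and IFIT2 differed by 0.21 and 0.24 with DMSO and by 0.41 and 0.36 with the inhibitor, and did not pass (limma adjusted p from 0.0614 to 0.327). For OAS1 the filter itself favoured a higher level on feeders.

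**Figure D5:**
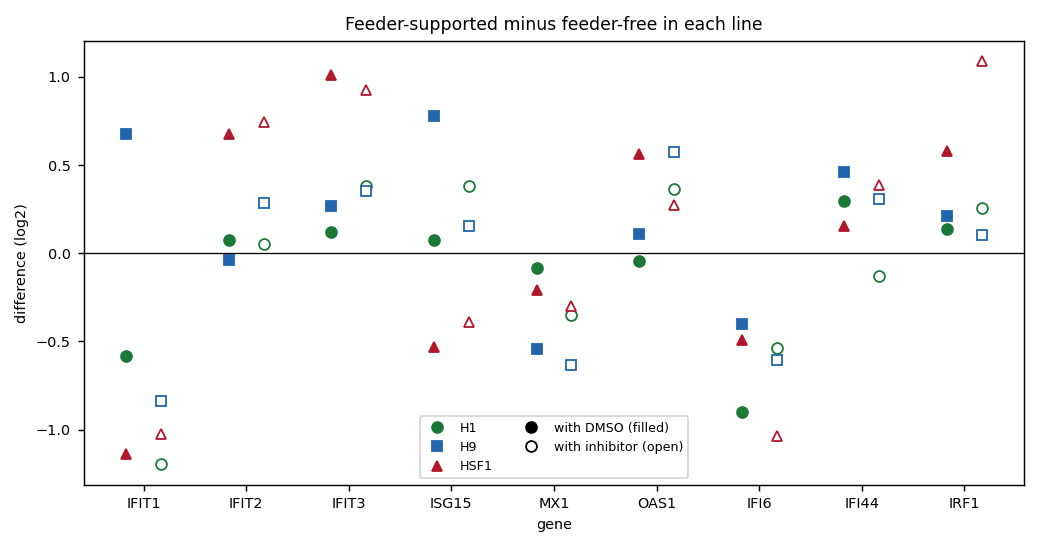
Difference between the feeder-supported and the feeder-free array (vertical axis, log2) in each line for the 9 genes, with filled symbols for DMSO and open symbols for the inhibitor. All 6 values of IFI6 and MX1 lie below 0, all 6 of IFIT3 and IRF1 above it, and IFIT1 in H9 with DMSO, at 0.67, lies apart from its other 5 values.

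Among the 88 other pathway genes 18 fell on feeders with DMSO (20.5%) and 9 rose (10.2%), and with the inhibitor 21 fell (23.9%) and 8 rose (9.09%). In this fit all 4 shares lay under those of all genes and show nothing particular to these genes. The shares of all genes were 24.1% lower and 15.2% higher with DMSO, and 27.8% lower and 19.3% higher with the inhibitor. The falls with DMSO included the kinase TBK1 (-1.10), the receptor chain IFNLR1 (-1.11), STAT3 (-1.53), IRF9 (-0.60), IRF3 (-0.98), the feedback inhibitor SOCS3 (-1.92), the ISG15-conjugating enzyme UBE2L6 (-1.06), LGALS3BP (-1.55), BST2 (-1.38) and IDO1 (-1.29), a tryptophan-degrading enzyme. The rises with DMSO included LAMP3 (1.67), a lysosomal protein, GBP2 (0.69) and NLRC5 (0.48), an activator of MHC class I genes. LAMP3 and GBP2 are dim, with means of 4.45 and 4.41 over the 24 arrays. Neither passed the filter in the medium experiment, where all cells were feeder-free. The filter may thus have admitted them through the feeder-supported arrays, which favours a rise. After quantile normalization 9 of 88 fell with DMSO (10.2%, against 8.92% of all genes) and 1 rose (1.14%, against 9.33%). With the ACTB covariate 1 fell (1.14%, against 1.22%) and 1 rose (1.14%, against 0.819%). With no block for the line 6 fell (6.82%, against 6.8%) and 1 rose (1.14%, against 3.87%). Without H1 4 fell (4.55%, against 4.15%) and 1 rose (1.14%, against 1.34%). Without H9 3 fell (3.41%, against 1.63%) and 1 rose (1.14%, against 0.511%). In these fits the share of falls lay near or above that of all genes.

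Across groups the order of levels differed between genes. The order spans separate experiments that were fitted apart. A gap between groups of different experiments cannot be told apart from a difference between the experiments. IFIT1 in feeder-free H9 cells was at 4.85 with DMSO and at 6.33 to 6.63 in unconditioned medium. IFIT1 was highest in feeder-free cells with the inhibitor (6.90 ± 0.245, SD, n = 3), above H9 in unconditioned medium (6.51 ± 0.152) and HSF1 in unconditioned medium (6.06 ± 0.0946), and these 3 groups did not overlap. Below them, neighbours from HSF1 in unconditioned medium to feeder-supported DMSO cells (5.31 ± 0.363) overlapped. IFI6 ran from 7.59 ± 0.293 (H9, unconditioned) through 7.50 ± 0.162 (feeder-free, inhibitor) and 7.39 ± 0.0332 (HSF1, unconditioned) to 6.45 ± 0.391 (feeders, DMSO), and among neighbours in its order only the third and the fourth did not overlap. MX1 was highest in H9 in unconditioned medium (7.52 ± 0.192) and lowest in HSF1 in conditioned medium (6.80 ± 0.198), and among neighbours only HSF1 in unconditioned medium (7.27 ± 0.0947) and feeder-supported DMSO cells (7.07 ± 0.119) did not overlap. IFIT3 was highest on feeders (7.02 ± 0.339 with DMSO and 6.99 ± 0.438 with the inhibitor), without overlap with feeder-free DMSO cells (6.56 ± 0.140), and the neighbours below overlapped. IFIT2 was also highest on feeders (6.77 ± 0.285 with the inhibitor and 6.77 ± 0.315 with DMSO), and among its neighbours only feeder-free inhibitor cells (6.41 ± 0.0668) and H9 in conditioned medium (6.26 ± 0.0566) did not overlap. Neighbouring groups of ISG15 overlapped throughout, from 9.14 ± 0.207 (HSF1, conditioned) to 8.58 ± 0.720 (feeder-free, DMSO), as did those of OAS1 and of IRF1 by 202531_at.

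Likeness was described by Pearson's r over the 24 arrays after subtracting the mean of each line within each experiment, over 16511 genes. The arrays share treatments and normalization, so r describes and is not tested. Among the members IFIT1 went with IFI6 (r = 0.75) and MX1 with IFI6 (0.70), IFIT2 went with IFIT3 (0.84), and IFIT1 ran against IFIT2 (-0.64) and IFIT3 (-0.64). ISG15 had r of 0.44 with IFIT1 and -0.37 with MX1. The other genes most like IFIT1 were PLA2G4A (0.92), DDX60 (0.92) and IDH1-AS1 (0.91), those most like ISG15 were LAMTOR5 (0.89), ANP32B (0.87) and MRPL41 (0.87), and those most like MX1 were ABHD2 (0.89), CYP2C8 (0.88) and ADCYAP1R1 (0.88). For IFI6 they were BDH1 (0.91), ASGR1 (0.91) and FAH (0.90), and for IRF1 FAM53B (0.91), HOTTIP (0.90) and GRIK5 (0.90). For IFIT2 they were LINC00445 (0.93), PTK6 (0.92) and INSRR (0.92), and for IFIT3 SNORA78 (0.94), CTF1 (0.92) and KCNIP2 (0.92).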

How the data were processed

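Total RNA from 24 cultures was measured on arrays, grouped by sample titles. The authors deposited log2 values of 54675 probe sets, which per the submitters' processing notes come from RMA, which corrects background, normalizes arrays and summarizes probes; its version is not given in the sources used here. As arrays carry no counts, the number of arrays limits the precision. Of the probe sets 41097 carry 1 gene symbol, 1801 several and 11777 none, by the platform annotation. limma 3.58.1 in R 4.3.3 (lmFit, eBayes with an intensity trend) was fitted per experiment of 12 arrays, with the line as a block for feeders and inhibitor and no block for medium. A fit over all probe sets gave the values of second probe sets. The labels name biological replicates only for medium, and p-values measure the spread between these arrays. On simulated data the fit recovered 68 of 100 genes changed by 1 (log2) and 99 of 100 changed by 2 for the inhibitor, and 97 and 100 for medium in H9. In the medium experiment, the deviations of same-numbered arrays had r from -0.27 to 0.13, and those of differently numbered arrays from -0.40 to 0.41. With 3 arrays per group this cannot decide whether the numbers pair the arrays. The sources state no pairing, and fits with the numbers as a block are given as alternatives.

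Members and lists were chosen with earlier results of these data known. Named genes are all members, up to 4 genes per list with the smallest p in a main comparison, and the 3 genes most like each member. A list gene named for medium in 1 line is also given for the other where it passed there. Alternatives covered normalization, filters, probe set choice, weights, blocks, the ACTB gap and left-out arrays. Promoter windows come from RefSeq's table for GRCh38.p14.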

Additional observations from a re-analysis of the deposited data

How the results depend on the processing

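The number of member genes past the threshold moved in most comparisons, and no called value changed sign. Each number is read beside the count over all tested genes, of 17218 for feeders and inhibitor and 16572 for medium. For feeders with DMSO it was 1, and 0 after quantile normalization, with the ACTB covariate and with no replicate block. It was 2 with array weights, where 11360 of all 17218 genes passed. For feeders with the inhibitor it was 3, and 1 after quantile normalization and with no replicate block, and 0 with the ACTB covariate. It was 6 with array weights, where 12282 of all 17218 genes passed. For the inhibitor mean it was 0, and 4 with array weights, 3 with the replicate block of line within culture and 2 without the feeder-supported HSF1 arrays. Of all 17218 genes, 5888, 2734 and 1367 passed in these fits. For the inhibitor on feeders it was 0, and 1 with array weights, where 1938 of all genes passed. For the inhibitor without feeders it was 0, and 2 with array weights and 1 with the block of line within culture or without the feeder-supported HSF1 arrays. Of all genes, 2388, 2413 and 1665 passed in these fits. For medium in H9 it was 3, and 1 without H9 unconditioned arrays 2 and 3. With replicate numbers as a block it was 2 in H9 and 3 in HSF1, where 1934 and 2390 of all 16572 genes passed. Leaving out 1 line or array gave 0 to 2 (feeders, DMSO), 0 to 4 (feeders, inhibitor), 0 to 2 (inhibitor mean), 0 to 1 (inhibitor without feeders), 1 to 4 (medium, H9) and 1 to 4 (medium, HSF1). Over all genes the ranges for feeders were 368 to 6459 (DMSO) and 790 to 7505 (inhibitor). For the inhibitor they were 2 to 496 (mean) and 6 to 437 (without feeders). For medium they were 1328 to 5295 (H9) and 1853 to 3895 (HSF1). The causes were not tested.

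Counts over all genes moved as well. For feeders with DMSO the count was 6772, and 3143 after quantile normalization, 11360 with array weights, 351 with the ACTB covariate and 1836 with no replicate block. With the inhibitor it was 8103, and 4221, 12282, 749 and 3323 in the same order. For the inhibitor mean it was 110, and 5888 with array weights, 2734 with the pair block, 1367 without the feeder-supported HSF1 arrays, 176 with the ACTB covariate, 33 with no replicate block, and 19 without the H9 feeder-free DMSO array, a fit added after the data were seen. Without H1 or without H9 it was 2 each. Without feeders it was 145, and 2388, 2413, 1665, 222, 62 and 44 in that order. On feeders it was 1, and 1938 with array weights and 86 with the pair block. For the difference between culture systems it was 3, and 144 and 140. For medium in H9 it was 2720, and 4277 with array weights, 1469 with the ACTB covariate and 656 without H9 unconditioned arrays 2 and 3. In HSF1 it was 3040, and 4770 with array weights. For the difference between the lines it was 1281, and 3113 with array weights, 757 with the replicate block and 535 without those 2 arrays. The block changed no other member call for medium than IFI6 in H9 and ISG15 in HSF1. Dim probe sets, those of OAS1 and IFI44, limit what could be seen.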
